A study of Homo sapiens with 2 samples.

Results

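Peaks of open chromatin on chromosome 7 with a start between 50 and 60 Mb (GRCh38), the span around EGFR, were set side by side in 5 lung adenocarcinoma lines. The span holds 399 of the 187920 peaks of the matrix and 67 of its 36601 gene entries. The lines (A549, HCC827, H838, H1975 and H2228) were cultured apart with no drug or genetic change named in the labels, frozen, mixed in equal amounts and captured in 1 tube. One part of the captured material, 80%, gave an RNA library and an ATAC library, and each barcode carries both readouts. With 1 culture of each line and 1 library per assay, no value has a replicate check, and intervals cover counting error only.

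No label ties a barcode to a line. Barcodes were therefore sorted by marker genes outside chromosome 7 into a GRIA4-marked line (410 barcodes), an A549-like line (738), an S100A9-marked line (446), an SLC30A8-marked line (577) and a DHRS2-marked line (243). The 7 markers of the GRIA4-marked line include NKX2-1 and SFTA3, genes of the lung epithelium, and all 7 were highest there. The A549-like line alone has a name, from genes known in A549 cells, such as ALDH1A1 and CYP24A1, of which 7 of 7 were highest there. The markers of both lines seeded the sorting, so these counts follow from it and lend it no support. The other lines were not matched to names. For 1 of them, the gene that could settle the name lies inside the span. Of the 2414 barcodes used, 2409 (99.8%) were put in the same line by their ATAC profile, among them 410 of 410 of the GRIA4-marked line. The ATAC sorting started from the RNA labels, and barcodes with mixed profiles were left out first, so this agreement is no independent check. Median depth per barcode was 11708.5 UMIs and 12459.5 peak counts in the GRIA4-marked line, and the medians of the other lines ran over 4458.5 to 13116.5 UMIs and 17332 to 31638 peak counts. Red cell genes were at 0 in every line. Summed levels of immune marker genes were 4.96 to 17.9 counts per 1e6 counts of a line (CPM). Those of endothelial and fibroblast genes were 3.45 to 94.2 CPM and 5.01 to 168 CPM. The GRIA4-marked line was at 8.11, 4.31 and 5.01 CPM for the immune, endothelial and fibroblast genes. The highest endothelial sum, in the S100A9-marked line, was mostly PECAM1 at 92.8 CPM. The highest fibroblast sum, in the DHRS2-marked line, was mostly COL1A1 and COL1A2, at 96.0 and 66.8 CPM. The part of these genes in the results was not tested.

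EGFR is a receptor tyrosine kinase of the ERBB family that binds EGF-like ligands at the cell surface and drives growth. In lung adenocarcinoma it is often mutated, and in some tumours and lines, HCC827 among them, the segment of chromosome 7 that carries it is amplified. An amplified segment usually includes neighbours of the driver gene. ATAC counts come from cuts of a transposase in accessible DNA, so both extra copies and more accessible chromatin per copy raise them. Copy number was not measured here, and the 2 cannot be told apart.

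Peaks over gene starts are a part of the readout, and 5 of these starts are shown because they mark the steps across the span. Each sequence is the 250 bases before the RefSeq start of the gene (GRCh38.p14), 5′ to 3′ on the gene's strand, with matches to the GC box GGGCGG on either strand in capitals. EGFR, SEC61G and VOPP1 lie where the excess was highest, NIPSNAP2 lies where it was intermediate, and PHKG1 is a start in that intermediate stretch whose peak showed no excess.
EGFR, plus strand, chr7:55018767-55019016: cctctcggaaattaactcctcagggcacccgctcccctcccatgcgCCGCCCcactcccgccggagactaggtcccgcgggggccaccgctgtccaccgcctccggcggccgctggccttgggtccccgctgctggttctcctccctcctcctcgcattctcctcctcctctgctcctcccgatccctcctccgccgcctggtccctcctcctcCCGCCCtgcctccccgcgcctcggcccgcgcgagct
SEC61G, minus strand, chr7:54759212-54759461: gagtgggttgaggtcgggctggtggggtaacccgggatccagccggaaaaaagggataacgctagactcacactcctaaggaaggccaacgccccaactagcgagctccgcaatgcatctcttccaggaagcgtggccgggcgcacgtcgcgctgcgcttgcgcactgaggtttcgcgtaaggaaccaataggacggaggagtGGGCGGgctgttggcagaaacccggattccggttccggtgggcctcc
VOPP1, minus strand, chr7:55572503-55572752: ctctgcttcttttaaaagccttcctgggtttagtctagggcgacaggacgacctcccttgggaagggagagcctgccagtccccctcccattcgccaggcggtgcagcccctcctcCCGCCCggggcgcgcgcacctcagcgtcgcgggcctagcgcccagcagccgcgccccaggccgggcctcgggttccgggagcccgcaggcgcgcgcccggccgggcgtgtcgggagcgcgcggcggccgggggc
NIPSNAP2, plus strand, chr7:55964335-55964584: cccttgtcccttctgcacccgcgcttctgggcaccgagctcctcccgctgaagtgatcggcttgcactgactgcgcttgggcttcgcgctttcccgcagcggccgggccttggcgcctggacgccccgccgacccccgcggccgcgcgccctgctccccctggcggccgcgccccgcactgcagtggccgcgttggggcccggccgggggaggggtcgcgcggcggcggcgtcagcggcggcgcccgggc
PHKG1, minus strand, chr7:56092953-56093202: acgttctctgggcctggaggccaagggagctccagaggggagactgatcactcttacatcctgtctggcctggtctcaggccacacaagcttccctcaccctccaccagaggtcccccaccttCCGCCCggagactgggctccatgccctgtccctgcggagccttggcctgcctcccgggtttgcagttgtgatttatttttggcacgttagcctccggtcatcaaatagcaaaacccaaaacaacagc

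The EGFR sequence holds 2 GC boxes, SEC61G, VOPP1 and PHKG1 hold 1 each and NIPSNAP2 holds 0. A GC box is present in 42.6% of all 35116 RefSeq promoters of this length in the table. Their GC content is 73.6%, 62.4%, 75.2%, 79.2% and 58.8% for EGFR, SEC61G, VOPP1, NIPSNAP2 and PHKG1, and the median of all promoters is 58.0%. Of the 14 measured genes in the high and intermediate stretches, 9 matched the promoter table.

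The GRIA4-marked line had far more peak counts over EGFR and its neighbours than the other lines. Levels of peaks are CPM of all peak counts of a line, and a fold is the level in the GRIA4-marked line over the mean level of the other 4 lines. In bins of 100 kb, a continuous run from 54.3 to 55.7 Mb was at 4-fold or more. It spans 1.4 Mb, holds 165 of the 399 peaks and is called the gain below. The span and the gain in it were chosen by these same peak counts per line, so the folds describe them and no test was made. The gain held 13088 CPM in the GRIA4-marked line (95% counting interval 12970 to 13206), against 551 CPM in the A549-like, 925 CPM in the S100A9-marked, 476 CPM in the SLC30A8-marked and 1023 CPM in the DHRS2-marked line. The fold was 17.6 (17.3 to 17.9), and 12.8 over the highest other line. Put another way, 1.31% of all peak counts of the GRIA4-marked line fell in these peaks, against 0.0551%, 0.0925%, 0.0476% and 0.102% of those of the A549-like, S100A9-marked, SLC30A8-marked and DHRS2-marked lines. The fold was 7.43 when each entry above 0 was counted once and 11.5 when barcodes were sorted by marker scores alone.

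**Figure D1:**
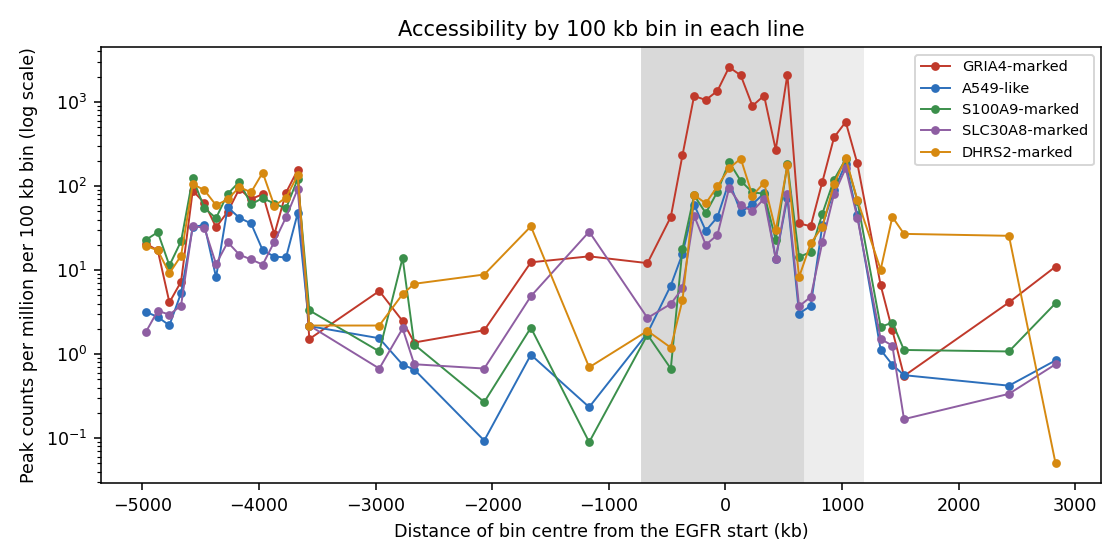
Peak level in CPM of each placed 100 kb bin (log axis) against distance from the EGFR start in kb, 1 line of points per cell line, with the gain (dark) and the shoulder (light) shaded. The DHRS2-marked value of 0 in the bin farthest right is drawn at 0.05. The GRIA4-marked line lies above the other 4 lines throughout the gain, reaches 2598 CPM at the EGFR start and lies closer to them in the shoulder.

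Inside the gain the excess formed a plateau. The bins from 54.6 to 55.2 Mb, which run from before SEC61G into EGFR, were at 18.2-fold to 26.5-fold, with the highest value at 54.8 to 54.9 Mb. The bins from 55.2 to 55.6 Mb, from the distal part of EGFR across LANCL2 and VOPP1, were at 13.2-fold to 16.6-fold. Peaks up to and including the EGFR start peak summed to a fold of 20.2 and those after it to 16.5.

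The left edge lay in a gene-poor stretch and is not sharp. The outermost placed bin, 54.3 to 54.4 Mb, was at 6.0-fold with 215 counts in all, and the next placed bin, 54.5 to 54.6 Mb, was at 13.9-fold. Farther left, bins had under 100 counts and were not placed, but 4 of them at 53.4, 53.5, 53.9 and 54.2 Mb were at 14.4-fold, 8.45-fold, 14.5-fold and 10.7-fold. Of the other bins without a place here, that at 53.6 Mb was at 4.96-fold and those at 54 and 54.1 Mb were at 3.26-fold and 0.320-fold. The 11 peaks from 53.4 to 54.3 Mb together held 47.7 CPM in the GRIA4-marked line, against 1.55, 2.51, 42.0 and 5.68 CPM in the A549-like, S100A9-marked, SLC30A8-marked and DHRS2-marked lines. The fold over these 11 peaks was 3.69, and 1.14 over the highest other line, the SLC30A8-marked one. Much of the SLC30A8-marked level came from the peak over the start of LINC01446, a long non-coding RNA, with 28.7 CPM. From 51.5 to 53.4 Mb the fold was 1.10. With so few counts, whether the excess reaches left of 54.3 Mb is not settled. The left edge was placed at 53.4 Mb under several other ways of sorting barcodes.

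By bin, the excess on the right fell in steps, from 16.6-fold at 55.5 to 55.6 Mb. The last bin of the gain, 55.6 to 55.7 Mb, was at 4.91-fold, and the 5 bins from 55.7 to 56.2 Mb, called the shoulder, were at 2.90-fold to 3.85-fold. Over the highest other line, that last bin was at 2.52-fold and the shoulder bins were at 1.60-fold to 3.18-fold. The edge at 55.7 Mb thus rests on the 4-fold limit over the mean. The 34 peaks of the shoulder summed to 1291 CPM in the GRIA4-marked line (1254 to 1328), against 357, 459, 311 and 443 CPM in the A549-like, S100A9-marked, SLC30A8-marked and DHRS2-marked lines, a fold of 3.29 (3.18 to 3.40). Beyond it, the bin at 56.3 to 56.4 Mb was at 1.77-fold, and those at 56.4 and 56.5 Mb were at 0.163-fold and 0.0763-fold, where the DHRS2-marked line was highest. Single peaks close to the edges, each with at least 50 counts, showed no clean step. The last 3 peaks inside the right edge, of which the outermost is chr7:55698827-55699738, were at 2.66-fold, 12-fold and 3.04-fold, and the first 3 outside it were at 2.55-fold, 1.68-fold and 1.57-fold. The first of those inside was highest in the S100A9-marked line, with 1.79 CPM in the GRIA4-marked line and 2.11 CPM in the S100A9-marked line. On the left the 3 nearest peaks inside were at 4.67-fold, 8.30-fold and 4.66-fold, and the nearest 3 outside were at 1.97-fold, 14.5-fold and 0.320-fold, so 1 of those outside was above all 3 inside.

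The excess was local. The flank from 50 to 51.5 Mb was at 1.28-fold, 40 to 50 Mb at 0.979-fold, 60 to 70 Mb at 0.872-fold and the whole of chromosome 7 outside the span at 1.04-fold. In windows of 1 Mb, 54 to 55 Mb was at 20.8-fold, 55 to 56 Mb at 13.8-fold and 56 to 57 Mb at 2.85-fold, and the median of the other 151 windows of the chromosome was 1.07, with 1 of them at 4-fold or more. Of the 44 placed bins in the span, 15 were at 4-fold or more, against 2.08% of all placed bins of the genome, and 20 were at 2-fold or more, against 9.65%. Beside the 13 in the gain these were 2 bins of 1 peak each, at 52.0 Mb (4.11-fold) and 57.8 Mb (7.81-fold). Among the 13265 bins of the genome with at least 1000 counts, the gain held 7 of the 10 highest folds, and the highest outside it was 28.0, at 11.6 to 11.7 Mb on chromosome 6.

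Single peaks carried the excess across the whole gain. With at least 100 counts, 262 peaks of the span were assessed, and 134 were at 4-fold or more, against 3.92% of all peaks; 160 were at 2-fold or more, against 13.2% of all peaks. These folds chose the gain, so nothing is read from these counts. When each entry above 0 was counted once, 81 peaks reached 4-fold. Of the 165 peaks of the gain, 34 were under the minimum, and 123 of the other 131 were at 4-fold or more, with a median of 16.1 and quartiles of 11.7 and 22.2. Peaks within 2 kb of a gene start had a median fold of 15.8 (11 peaks) and those farther away 16.1 (120 peaks). In the shoulder the median was 2.39 over 23 peaks, with quartiles of 1.24 and 3.88. Shoulder peaks within 2 kb of a gene start had a median of 3.36 (11 peaks) and those farther away 1.86 (12 peaks). The left flank had a median of 1.07 over 104 peaks.

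**Figure D2:**
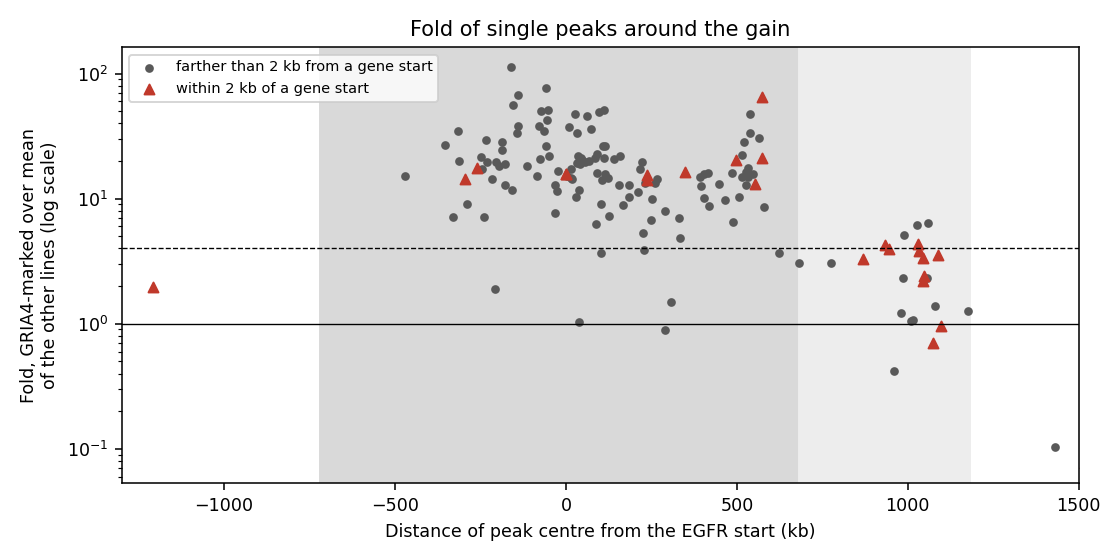
Fold of each peak with at least 100 counts (GRIA4-marked line over the mean of the other 4 lines, log axis) against distance from the EGFR start in kb, with triangles for peaks within 2 kb of a gene start, dots for the rest, a dashed line at 4-fold and the gain (dark) and shoulder (light) shaded. Most peaks of the gain lie near the fold of 17.6, and peaks of the shoulder lie lower, around a median of 2.39.

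The starts of the genes in the gain were close to the fold of the whole stretch. The EGFR start peak (chr7:55018589-55019468), which covers the EGFR sequence above, held 565 CPM in the GRIA4-marked line, against 32.8, 41.1, 24.9 and 43.9 CPM in the A549-like, S100A9-marked, SLC30A8-marked and DHRS2-marked lines, a fold of 15.8. The SEC61G start peak (chr7:54758809-54759711) held 572 CPM, against 26.2, 41.5, 27.6 and 35.7 CPM in the same order of lines, a fold of 17.5. The highest level in the gain was at the LANCL2 start (chr7:55365594-55366545), with 1117 CPM against 79.0, 71.6, 51.4 and 69.8 CPM, a fold of 16.4. For VOPP1 (chr7:55572092-55572918) the start peak held 546 CPM, against 38.7, 49.6, 34.7 and 43.8 CPM, a fold of 13.1. All 4 starts were open in every line, and the GRIA4-marked level stood far above the other 4 at each. Of the 11 assessed peaks near a gene start in the gain, 10 lay within 1.5 times of its fold, that is between 11.7-fold and 26.4-fold.

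Peaks away from starts spread more widely. Of all 131, 70 were within 1.5 times of the fold of the gain, 28 above and 33 below. Between the SEC61G and EGFR starts 14 of 34 peaks were above that range, with a median fold of 21.1. In the stretch from the end of EGFR to LANCL2 0 of 17 were above it and 10 below, with a median of 9.88. In the EGFR body 7 of 42 were above and 9 below, with a median of 18.2. The peak with the highest fold lies between SEC61G and EGFR (chr7:54857851-54858744), with 54.2 CPM in the GRIA4-marked line, against 0.422, 0.538, 0.169 and 0.797 CPM in the A549-like, S100A9-marked, SLC30A8-marked and DHRS2-marked lines, a fold of 113. The next 4 were at 76.8-fold (chr7:54961235-54962091), 67.4-fold (chr7:54879592-54880429), 65.4-fold (chr7:55590992-55591888, 185 bases from the AC099681.3 start) and 55.9-fold (chr7:54864334-54865231). At the peak of 113-fold each of the other 4 lines was under 1 CPM. A few peaks of the gain had little or no excess, and 4 of 131 were highest in another line. The lowest fold was 0.895, at a peak between EGFR and LANCL2 (chr7:55308003-55308850) with 3.03 CPM in the GRIA4-marked line, against 0.187, 0.359, 9.69 and 3.29 CPM in the A549-like, S100A9-marked, SLC30A8-marked and DHRS2-marked lines. At 1.03-fold, a peak within EGFR (chr7:55056666-55057459) held 5.92 CPM in the GRIA4-marked line, against 14.2, 0.763, 6.83 and 1.10 CPM in the other lines. Another between EGFR and LANCL2 (chr7:55325161-55326040), at 1.49-fold, held 9.36 CPM, against 0.750, 2.47, 0.927 and 20.9 CPM, and so was highest in the DHRS2-marked line.

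The distribution of counts over the gain was alike in part between the lines. The shares of the 131 peaks in the gain's counts correlated between the GRIA4-marked line and the mean of the other lines at r = 0.805 on log2 shares and rho = 0.736, a description across peaks that share libraries and sequence. Peaks in the EGFR body took 35.9% of the gain's counts in the GRIA4-marked line, against 29.8%, 33.5%, 33.0% and 36.9% in the A549-like, S100A9-marked, SLC30A8-marked and DHRS2-marked lines. The body of LANCL2 took 10.1%, against 16.4%, 9.33%, 12.8% and 8.84%. The body of VOPP1 took 14.7%, against 12.5%, 19.5%, 16.2% and 16.4%, and peaks in no named RefSeq gene took 23.3%, against 20.7%, 21.5%, 19.6% and 23.2%. For these bodies and the intergenic peaks the shares of the GRIA4-marked line lay within or close to the range of the other lines. The folds of single peaks ran over 0.0509 to 6.40 times the fold of the whole gain.

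The RNA of the span followed the same steps. Levels of RNA are CPM of all UMIs of a line, and a fold is taken on CPM + 1, which understates it for genes of low level. Of the 67 gene entries, 31 had 0 UMIs, 19 had at least 20, and 16 of these 19 were at 2-fold or more in the GRIA4-marked line, against 7.09% of all genes; 0 of the 19 were at 0.5-fold or less, against 19.8% of all genes. In the gain 6 of 15 entries had 20 UMIs, all 6 at 2-fold or more; in the shoulder 8 of 10, all 8 at 2-fold or more; and in the left flank 5 of 29, with 2 at 2-fold or more. The entries that reached the minimum are not all members, and a gene high in the GRIA4-marked line could reach it through that line alone.

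EGFR had 8168 CPM of RNA in the GRIA4-marked line (95% counting interval 8095 to 8242), against 366 CPM (348 to 385) in the A549-like, 474 CPM (460 to 488) in the S100A9-marked, 148 CPM (138 to 159) in the SLC30A8-marked and 731 CPM (706 to 756) in the DHRS2-marked line. The order, from high to low, was the GRIA4-marked, DHRS2-marked, S100A9-marked, A549-like and SLC30A8-marked line, with no overlap of neighbouring counting intervals. The peak counts of the gain gave the same order. The DHRS2-marked line also had the most barcodes left out as mixed, 136 of 379. The part of remaining mixing in its level was not tested. The RNA fold was 19.0 (18.6 to 19.4), beside 15.8 for the start peak. It was 10.7 when barcodes were sorted by marker scores alone and 11.2 over the highest other line. How much RNA was carried over between barcodes was not estimated. Relative to the GRIA4-marked line, EGFR was at 1.81% in the SLC30A8-marked line, where the 3 leading markers GRIA4, LINC01980 and LINC01456 were at 1.66%, 2.02% and 0.172%. The EGFR level of that line lies within the range of these markers, and the part of carried-over RNA in it was not tested. SEC61G, LANCL2 and VOPP1 were above that range in the SLC30A8-marked line, at 5.87%, 4.40% and 6.54%. In the other 3 lines EGFR was at 4.48% to 8.95%, and the 3 markers at 0.187% to 1.60%.

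LANCL2, which encodes a LanC-like protein, had 706 CPM in the GRIA4-marked line, against 36.7, 29.3, 31.0 and 55.1 CPM in the A549-like, S100A9-marked, SLC30A8-marked and DHRS2-marked lines, an 18.1-fold excess beside 16.4-fold at its start. VOPP1, a gene often overexpressed in cancers, had 1712 CPM, against 104, 105, 112 and 140 CPM, 14.7-fold beside 13.1-fold. SEC61G, a subunit of the channel that moves new proteins into the endoplasmic reticulum, had 556 CPM, against 51.2, 64.8, 32.7 and 43.2 CPM, 11.4-fold beside 17.5-fold. For these 4 protein-coding genes the RNA fold lay between 11.4 and 19.0 and the start peak fold between 13.1 and 17.5, and no line other than the GRIA4-marked one came near its level. The non-coding entries EGFR-AS1 (20.2 CPM against 0.551 to 2.76 CPM, 7.38-fold) and AC074351.1, or SEC61G-DT (37.6 CPM against 1.53 to 3.86 CPM, 11.1-fold), overlap or adjoin EGFR and SEC61G, and whether counting used strand is not given in the sources used here, so their reads cannot be told apart from those of their neighbours.

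**Figure D3:**
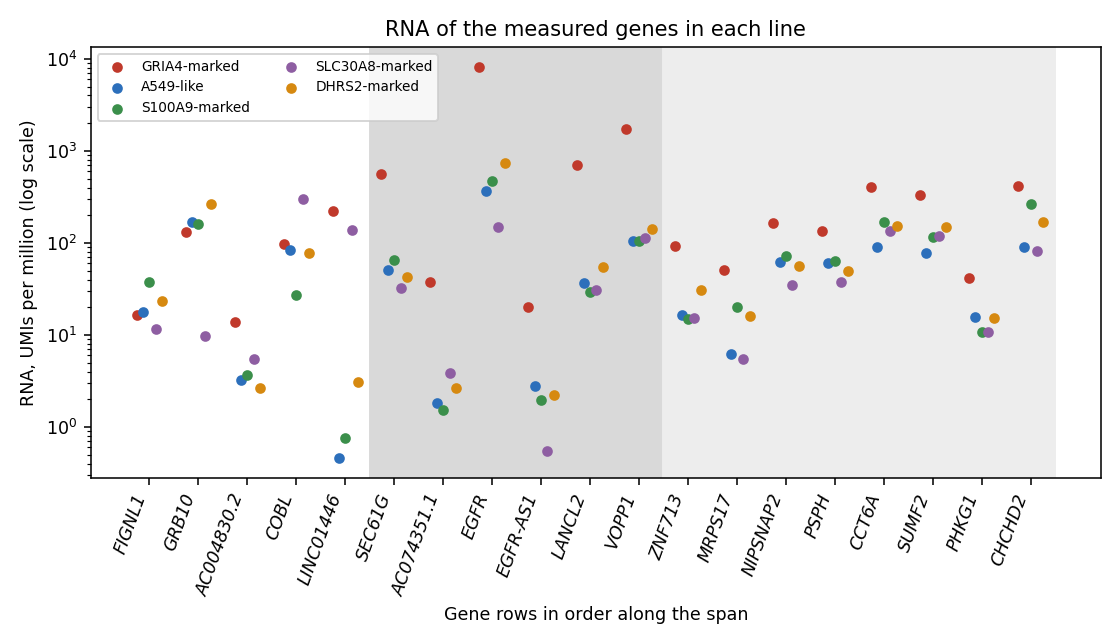
RNA level (CPM of UMIs, log axis) of the measured genes of the span in order of position, 1 point per line and gene, with the gain (dark) and shoulder (light) shaded. The GRIA4-marked line stands highest for all genes of the gain and of the shoulder, with EGFR at 8168 CPM, and lies among the other lines for FIGNL1, GRB10 and COBL.

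The shoulder genes showed a smaller excess in RNA and peaks alike. The 8 measured genes were at 2.51-fold to 4.61-fold, with a median of 2.91. CCT6A, a subunit of the TRiC chaperonin, had 403 CPM in the GRIA4-marked line, against 90.9, 169, 135 and 152 CPM in the A549-like, S100A9-marked, SLC30A8-marked and DHRS2-marked lines, a fold of 2.93. PSPH, the last enzyme of serine synthesis, had 134 CPM, against 59.9, 63.9, 37.8 and 50.01 CPM, a fold of 2.51, and shares with CCT6A a start peak at 3.80-fold. MRPS17, a protein of the small mitochondrial ribosomal subunit, had 50.2 CPM, against 6.20, 20.1, 5.51 and 15.9 CPM, 3.96-fold beside 4.24-fold at its start. The highest fold was that of ZNF713, a zinc finger gene, at 4.61 (92.8 CPM against 14.7 to 31.0 CPM) beside 3.32 at its start. The mitochondrial proteins NIPSNAP2 and CHCHD2 were at 2.88-fold and 2.76-fold, and SUMF2 was at 2.87-fold, with start peaks at 3.96-fold, 3.56-fold and 3.36-fold. PHKG1, the catalytic subunit of phosphorylase kinase in muscle, was at 3.0-fold in RNA, while its start peak was at 0.705-fold (7.02 CPM in the GRIA4-marked line, against 4.92, 7.81, 9.44 and 17.6 CPM in the other lines). PHKG1 overlaps SUMF2 in RefSeq, and with strand not given their reads cannot be told apart. PSPH, CCT6A, CHCHD2 and SEC61G have near-identical copies in the genome, and their counts are uncertain to that extent.

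**Figure D4:**
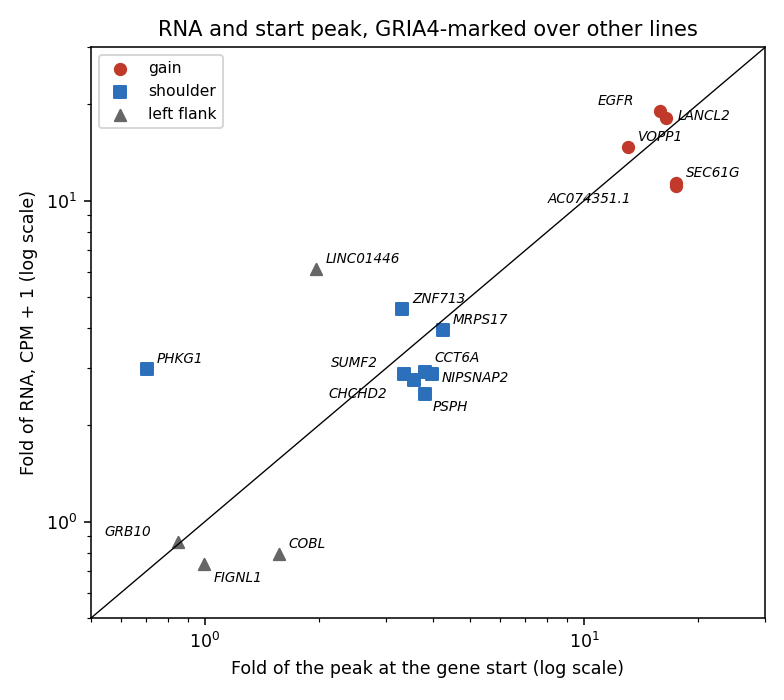
Fold of RNA (CPM + 1, vertical) against fold of the start peak (horizontal) for the measured genes that have one, both on log axes with the line of equal folds. EGFR, LANCL2, VOPP1 and SEC61G lie together at the top right, shoulder genes lie near 3-fold on both axes with PHKG1 to their left, LINC01446 lies above the line of equal folds, and FIGNL1, GRB10 and COBL lie around 1.

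Left of the gain the lines gave no such order. FIGNL1, an ATPase of homologous recombination, was at 0.738-fold, GRB10, an adaptor of the insulin receptor, at 0.867-fold and COBL, an actin nucleator, at 0.795-fold, each with another line higher. GRB10 had 130 CPM in the GRIA4-marked line, against 167, 161, 9.73 and 262 CPM in the A549-like, S100A9-marked, SLC30A8-marked and DHRS2-marked lines. AC004830.2, an entry with no start peak, was at 3.10-fold, with 13.8 CPM in the GRIA4-marked line against 2.66 to 5.51 CPM in the others. LINC01446, 1.2 Mb left of the EGFR start, had 220 CPM in the GRIA4-marked line and 137 CPM in the SLC30A8-marked line, against at most 3.10 CPM in the other 3, a fold of 6.11. Its start peak had 14.6 CPM in the GRIA4-marked line and 28.7 CPM in the SLC30A8-marked line, so the order of these lines differs between RNA and peak. No gene right of the shoulder reached 20 UMIs.

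Nearly every barcode of the GRIA4-marked line carried the excess. The share of a barcode's peak counts in the gain had a median of 1.27% in the GRIA4-marked line (5th percentile 0.506%, quartiles 1.03% and 1.5%, highest 4.92%), against medians of 0.0499%, 0.0835%, 0.0413% and 0.0938% in the A549-like, S100A9-marked, SLC30A8-marked and DHRS2-marked lines. The median was 0.662% when each entry above 0 was counted once. Of the 410 barcodes, 6 lay at or below 0.188%, the 99th percentile of the other lines, and 1 had no count in the gain. The groups overlapped: 22 of 410 were at or under the highest share of the other lines, 0.524%, and 2 of 2004 other barcodes were at or above the 5th percentile of the GRIA4-marked line. Among the 322 deep barcodes, those with at least 5000 peak counts, the SD was 0.440 percentage points, while counting alone gives 0.140. Barcodes are not replicates, and the cause of this spread was not tested.

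Across those 322 barcodes the share in the gain and the EGFR share of UMIs correlated at r = 0.391 and rho = 0.408. The peak counts before the EGFR start and from 55.3 Mb on, which share no peak, correlated at r = 0.605 and rho = 0.525, and the gain and the shoulder at r = 0.386 and rho = 0.353. Depth went along with neither the gain (rho = 0.0445) nor the EGFR share (rho = 0.0745). In the other lines rho between gain and EGFR share ran over 0.0348 to 0.117. These are descriptions over barcodes of 1 library with shared totals. The other lines had fewer counts in the gain and in EGFR, and the part of this in their rho was not tested.

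**Figure D5:**
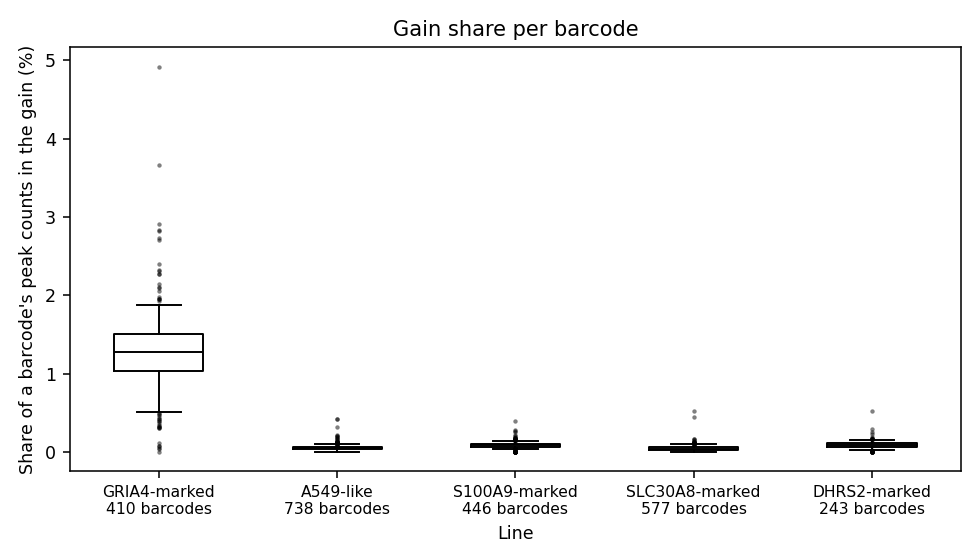
Share of each barcode's peak counts in the gain (percent, linear axis) by line, with boxes for the median and quartiles, whiskers at the 5th and 95th percentiles and dots for barcodes beyond them. The GRIA4-marked line centres on 1.27%, and the other 4 medians lie between 0.0413% and 0.0938%.

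Other genes of the pathway lie on other chromosomes and had smaller folds. Of 10 further ERBB receptors and EGFR ligands, all with at least 20 UMIs, 5 were at 2.83-fold to 3.85-fold in the GRIA4-marked line, against 7.09% of all genes at 2-fold or more, and 2 at 0.5-fold or less, against 19.8% of all genes, with a median of 1.99 against 0.793 over all genes. EREG, a ligand of EGFR, had 386 CPM in the GRIA4-marked line, against 99.4, 316, 2.20 and 94.9 CPM in the A549-like, S100A9-marked, SLC30A8-marked and DHRS2-marked lines. AREG, another EGFR ligand, had 314 CPM, against 71.2, 255, 10.5 and 73.2 CPM. EGF, also a ligand of EGFR, was at 0.414-fold, with 5.35 CPM in the GRIA4-marked line, against 7.12, 36.6, 4.41 and 9.29 CPM. For EREG and AREG the S100A9-marked line was close to the GRIA4-marked one, unlike for EGFR.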

How the data were processed

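RNA and ATAC were measured in the same cells of 1 capture. Per the submitters' processing notes, the authors used Cell Ranger ARC 2.0.0 and GRCh38; peak calling, annotation and strand of RNA counting are not stated there or in the labels. The deposited counts are whole numbers: UMIs per gene and transposase counts per peak, not normalised. Of peak entries 83.3% are even, so a fragment usually adds 2 counts, and exact Poisson 95% intervals were taken on counts divided by 2. Peak counts carry no molecular identifiers, so whether each fragment is an independent molecule is not known here. With 1 culture of each line and 1 library per assay, intervals cover counting error only. Positions are those deposited, with starts printed 1-based.

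Of 3298 barcodes, 2804 had at least 1000 UMIs, 500 genes and 1000 peak counts and at most 20% mitochondrial UMIs. The 63 highest Scrublet scores were left out as doublets (scanpy 1.11.5), at 0.8% per 1000 barcodes; the automatic threshold marked 1. Barcodes went to the most likely of 5 marker-seeded profiles of genes outside chromosome 7. Those with a top weight under 0.8, 327 in all, were left out as mixed. By line they were 42 GRIA4-marked, 26 A549-like, 107 S100A9-marked, 16 SLC30A8-marked and 136 DHRS2-marked barcodes. The 2414 used hold 29274738 UMIs and 72808612 peak counts. Bins and peaks needed 100 counts and genes 20 UMIs; the gain ended before 2 placed bins in a row under 4-fold. A gene start is an end of its deposited interval. The steps were run on simulated counts with a uniform gain and with barcodes drawn from the profiles of these lines. The simulated left edge lay in bins with more counts than the real one, so its placement here was not checked. Named genes were EGFR, the 10 with the largest fold and those nearest the edges; peaks were the highest by CPM and by fold and those at the edges. The 3 peaks of lowest fold, LINC01446's start and the ERBB family genes named were chosen after their values were seen. Members and lists were chosen with earlier results of these data known. Python 3.11.15, numpy 2.4.6, scipy 1.17.1 and pandas 2.3.3 were used.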

Additional observations from a re-analysis of the deposited data

How the results depend on the processing

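Values below are the fold of the gain (17.6), the EGFR RNA fold (19.0), the edges (54.3 and 55.7 Mb) and the median share per GRIA4-marked barcode (1.27%). With mixed barcodes kept they were 14.0, 12.8, left edge 53.4 and 1.24%; with barcodes sorted by ATAC 17.1, 15.3 and 53.4; with marker scores alone 11.5, 10.7, 53.4 and 1.23%; with no mitochondrial limit 16.7, 16.8 and 53.4; with median-ratio scaling, which moves the median log2 fold of all genes by 0.18, 18.0 and 21.4. Over the highest other line they were 12.8, 11.2 and right edge 55.6. With a top weight of at least 0.95, chosen after seeing the data, they were 18.3, 19.7 and 1.26%. Entries counted once gave 7.43 and 0.662%, and 81 peaks at 4-fold in place of 134. The left edge was 54.2 with doublets kept or bins of 200 kb, 53.35 with 50 kb and 54.5 at 8-fold; the right edge was 55.6 with 200 kb or at 8-fold and 56.2 at 2-fold. At 4-fold 8 genes in place of 16 passed. No value changed its direction, and the count of bins stayed within 1.5 times in its 12 alternatives. The cause of these shifts was not tested. With 1 library of each kind, no analysis paired across replicates was possible. RNA and ATAC were paired only within barcodes. Depth limits the sparse bins left of the gain, which hold under 100 counts each.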

Other observations

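Right of the shoulder the DHRS2-marked line held most of the few counts. The 14 peaks there summed to 26 CPM in the GRIA4-marked line, against 3.94, 11.7, 4.13 and 111 CPM in the A549-like, S100A9-marked, SLC30A8-marked and DHRS2-marked lines. A single peak (chr7:56448008-56448876) held 1.10 CPM in the GRIA4-marked line and 39.2 CPM in the DHRS2-marked line, with at most 2.24 CPM in the other 3. The 13 gene entries of this stretch summed to 0.173 CPM of RNA in the GRIA4-marked line, against 0.230, 0.218, 0.367 and 7.75 CPM in the other lines, with the DHRS2-marked line highest again. No explanation was tested.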
